A study of Mus musculus with 12 samples.

Results

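Surface proteins that mark successive stages of mouse B-cell development were examined in premalignant pre-B cells with and without Smchd1. The 9 genes were Cd93, Cd24a, Bst1 and Il2ra, which mark pro-B and pre-B stages, Cd22 and Cd72, 2 inhibitory co-receptors of the B lineage, and Ms4a1, Cr2 and Fcer2a, which mark later stages. They were chosen by symbol, as every probe whose target name in the deposited probe table equals a listed gene, which gave 15 of the 45281 probes on the array. All samples came from Eµ-Myc transgenic mice on the C57BL/6 background, in which a Myc transgene under the immunoglobulin heavy-chain enhancer is active in B-lineage cells, so the wildtype group carries the transgene too. Smchd1, which encodes a chromosomal protein of gene silencing, was disrupted on both copies by a gene trap in the 6 null samples and was intact in the 6 wildtype samples. The age of the mice, the sorting gate and the number of mice per sample are not given in the sources used here, so the p-values cover only the spread between samples, which may be technical. Freshly harvested cells were sorted, and 1 Illumina mouse array was run per sample.

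In the mouse bone marrow, pro-B cells rearrange the heavy chain, large pre-B cells divide under pre-B-cell receptor and interleukin-7 signals, and small pre-B cells rearrange a light chain before they display surface immunoglobulin. CD93 (the AA4.1 antigen) and CD24 (heat-stable antigen) are displayed from early stages on, BST1 (CD157, or BP-3) is found on early B-lineage cells and on stromal and myeloid cells, and IL2RA (CD25) is gained at the pre-B stage. CD22 and CD72 recruit the phosphatase SHP-1 through inhibitory motifs in their tails, CD20 (Ms4a1) appears on late pre-B and B cells, and the complement receptor CD21/CD35 (Cr2) and the low-affinity IgE receptor CD23 (Fcer2a) are characteristic of mature B cells.

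Smchd1 was low on the null arrays. The brightest Smchd1 probe had a log2 intensity of 9.47 ± 0.14 in wildtype and 5.05 ± 0.35 in null arrays (SD, n = 6 each; limma adjusted p = 1.3e-09). Of pre-B markers fixed as a check, Cd79b, Vpreb1, Igll1, Il7r and Rag1 were each detected on all 12 arrays by their brightest probe, Pax5 was detected on 4 wildtype and 3 null arrays, and Cd79a had no probe under that name. A probe counted as detected where the scanner software's detection p against the negative control probes was under 0.05, and between 15396 and 16587 probes were detected per array. Array null 5 stood apart: its weight in a fit that weights arrays by quality was 0.212, the lowest of the 12, followed by null 4 (0.437), while the others lay between 1.01 and 1.82. Its mean over 6 plasmacytoid dendritic genes was 2.47 log2 above the wildtype mean. Array null 3 was 3.34 above it over 13 myeloid genes, against at most 0.40 on any other array. Results are therefore given with and without these arrays.

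Of the 9 marker genes, 5 were bright enough to be tested between the genotypes (Cd22, Cd72, Ms4a1, Cd93 and Cd24a, with 8 probes), and 4 stayed at the level of the negative controls (Il2ra, Bst1, Cr2 and Fcer2a, with 7 probes). None of the 8 tested probes changed at an adjusted p under 0.05 (limma, adjusted over all 17607 tested probes), where 1.22% of all tested probes did. Cd72 and the brighter Cd93 probe had an unadjusted p under 0.05, both lower in null arrays, 2 of 8 where 18.1% of all tested probes had such a p and 10.7% had it with a lower null level. All 8 fitted changes were below 0, with a median log2 change of -0.23 against -0.04 over all tested probes, of which 58.2% were below 0. The null and wildtype ranges overlapped for all 8, where 3.01% of all tested probes had groups that did not overlap.

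The spread among null arrays was wide, and array null 5 set much of it. For all 8 probes the SD was larger in null than in wildtype arrays, as it was for 74.2% of all tested probes. The SDs were nearly equal for Cd24a (0.51 in wildtype and 0.52 in null arrays) and for the dimmest Cd22 probe (0.20 and 0.22). The median SD of the 8 was 0.17 in wildtype and 0.57 in null arrays, against 0.16 and 0.24 over all tested probes. Null 5 was the lowest of the 12 arrays for 7 of the 8 probes, where it was the lowest for 28.7% of all tested probes, and it was the highest for none, against 17.4%. Its median difference from the wildtype mean was -1.28 over the 8 probes and -0.11 over all tested probes. In sorted samples measured in bulk, fewer cells of a type and less RNA per cell cannot be told apart.

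**Figure D1:**
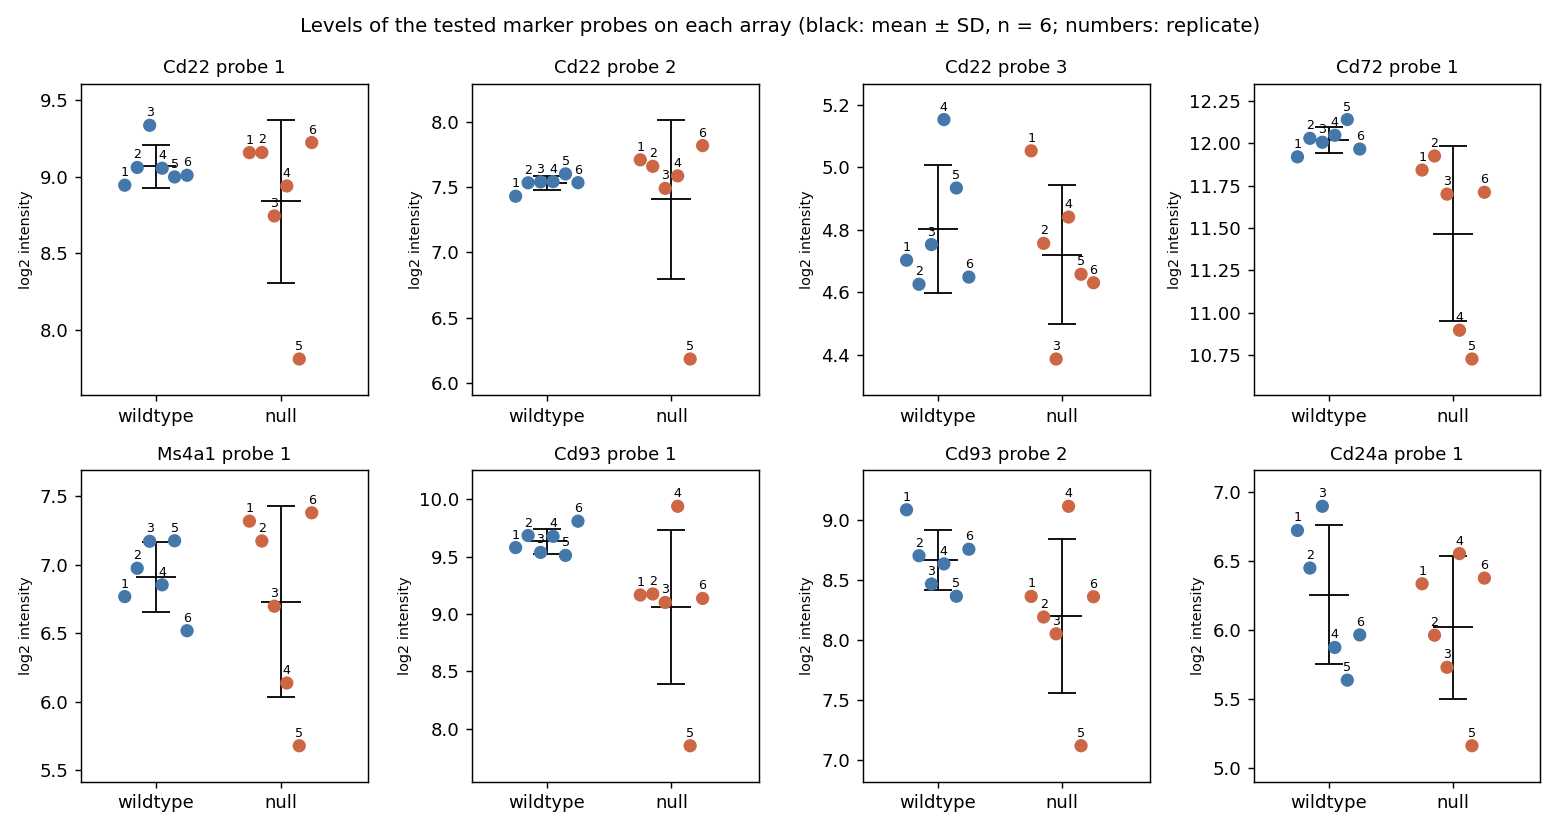
Log2 intensity (vertical axis) of the 8 tested marker probes on each of the 6 wildtype (blue) and 6 null (orange) arrays, with replicate numbers and black bars for mean ± SD. Null 5 is the lowest array in every panel except Cd22 probe 3, and null 4 joins it at the bottom for Cd72 and Ms4a1 but is the highest array for both Cd93 probes.

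Promoter sequences of 5 of the 9 genes were found in the RefSeq promoter table (GRCm38.p6). The 250 bases before a start listed there are shown for 4 genes. Cd22 and Cd72 are co-receptors detected on every array and low together on null 5, and Cr2 and Il2ra stayed at background on all arrays. The Cd22 and Cd72 windows lie inside the RefSeq bounds of the gene, and the Cr2 window overlaps them. For these 3 genes the listed start is thus not the outermost start of the gene. Capitals mark matches to the E-box of E proteins and Myc, CANNTG, and to the inner letters of the palindromic EBF1 motif, CCCNNGGG, each searched on both strands.
Cd22, chr7:30879029-30879278, minus strand: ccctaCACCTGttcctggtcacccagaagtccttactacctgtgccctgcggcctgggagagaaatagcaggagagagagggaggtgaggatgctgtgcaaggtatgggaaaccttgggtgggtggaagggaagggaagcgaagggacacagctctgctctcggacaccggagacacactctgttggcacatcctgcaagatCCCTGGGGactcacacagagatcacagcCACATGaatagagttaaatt
Cd72, chr4:43454627-43454876, minus strand: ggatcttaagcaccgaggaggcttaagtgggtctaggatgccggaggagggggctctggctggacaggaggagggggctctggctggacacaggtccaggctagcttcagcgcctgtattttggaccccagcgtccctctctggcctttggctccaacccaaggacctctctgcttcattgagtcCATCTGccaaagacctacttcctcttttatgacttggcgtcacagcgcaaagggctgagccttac
Cr2, chr1:195176720-195176969, minus strand: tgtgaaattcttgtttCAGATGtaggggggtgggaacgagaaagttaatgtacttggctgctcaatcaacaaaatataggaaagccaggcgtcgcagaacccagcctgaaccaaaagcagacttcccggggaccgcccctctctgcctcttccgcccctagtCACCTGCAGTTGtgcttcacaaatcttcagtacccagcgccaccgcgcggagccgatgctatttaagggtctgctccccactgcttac
Il2ra, chr2:11642542-11642791, plus strand: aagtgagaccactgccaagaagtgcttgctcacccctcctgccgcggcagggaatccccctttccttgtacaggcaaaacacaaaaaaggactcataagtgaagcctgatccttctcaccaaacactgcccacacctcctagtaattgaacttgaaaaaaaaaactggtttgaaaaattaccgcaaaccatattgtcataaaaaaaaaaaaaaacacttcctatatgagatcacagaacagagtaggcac
The Cd22 window held 2 E-boxes and 1 CCCNNGGG match that begins 48 bases before the listed start. The Cd72 window held 1 E-box, the Cr2 window held 3, and the Il2ra window held neither motif. Of 32851 promoter windows of this length 66.2% held CANNTG and 11.8% held CCCNNGGG. The Myc E-box CACGTG, a special case of CANNTG, was in none of these 4 windows and in 6.02% of all. The octamer ATGCAAAT was in none of the 4 and in 1.60% of all. A match describes these letters only, and factor binding was not measured here.

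Cd93 encodes a C-type lectin-like receptor of early B cells. Its brighter probe ran from 9.51 to 9.81 in wildtype arrays with a median of 9.63, and from 7.85 to 9.94 in null arrays with a median of 9.15. The values of null 1, 2, 3 and 6 lay close together between 9.10 and 9.17, below every wildtype array, null 5 lay far below them and null 4 lay above every wildtype array. The fitted log2 change was -0.57 (SE 0.25, limma adjusted p = 0.24), a 1.49-fold lower level, with a 95% interval of -1.10 to -0.04 that is not adjusted for the number of probes. The second Cd93 probe repeated this order at its ends, with a range of 8.36 to 9.08 in wildtype and 7.12 (null 5) to 9.11 (null 4) in null arrays, and changed by -0.47 (SE 0.25, limma adjusted p = 0.34). Its values for null 1 and null 6 (both 8.36) lay at the lowest wildtype value, so for these arrays the position below wildtype is within the rounding of the level. On BeadChip 1 alone, 3 arrays against 3, the changes of the 2 probes were -0.62 and -0.55, and on BeadChip 2 alone -0.52 and -0.38, the sign being the same on both.

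The brighter Cd93 probe was the only one whose call depended on the arrays used. Without null 5 its change was -0.33, and with null 3 and null 5 left out it was -0.28 (limma adjusted p = 0.44). Without both null 4 and null 5, the 2 arrays of lowest weight and of opposite position for this gene, it was -0.49 and passed (limma adjusted p = 0.0078), while the second probe did not (-0.43, limma adjusted p = 0.14). Both sets of left-out arrays were chosen after the data were seen. At least 5 of the 6 null arrays lay below every wildtype array for both Cd93 probes and for Cd72, 3 of 8 probes against 5.21% of all tested probes.

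Cd24a encodes a small glycosylphosphatidylinositol-anchored protein whose surface level changes through the pro-B and pre-B stages. Related copies of Cd24a exist in the mouse genome, and which of them the probe reads is uncertain. In wildtype arrays it ran from 5.64 to 6.90 with a median of 6.21, and in null arrays from 5.16 (null 5) to 6.55 (null 4) with a median of 6.15. The 3 wildtype arrays on BeadChip 1 (6.45 to 6.90) lay above the 3 on BeadChip 2 (5.64 to 5.96). Among null arrays, null 4 (6.55) and null 6 (6.38) on BeadChip 1 also lay above the 3 on BeadChip 2 (5.73 to 6.34). Null 5, on BeadChip 1, lay below them all. The fitted log2 change was -0.24 (SE 0.26, limma adjusted p = 0.66). It was -0.66 on BeadChip 1 and 0.18 on BeadChip 2, and -0.07 without null 5. Its 95% interval over all arrays was -0.80 to 0.32.

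Cd72 encodes a C-type lectin co-receptor that dampens B-cell receptor signals. Its probe was nearly constant in wildtype arrays, from 11.92 to 12.14 with a median of 12.02, and ran from 10.73 to 11.93 in null arrays with a median of 11.71. Null 5 (10.73) and null 4 (10.90) were far below the rest, at 2.45-fold and 2.18-fold under the wildtype mean. Null 1, 3 and 6 lay between 11.70 and 11.84, also below every wildtype array, and null 2 (11.93) lay above only wildtype 1 (11.92). The fitted log2 change was -0.55 (SE 0.19, limma adjusted p = 0.17), a 1.47-fold lower level with a 95% interval of -0.97 to -0.14. It was below 0 under all 26 other settings, from -0.87 on BeadChip 1 to -0.22 with null 4 and null 5 left out, and passed under none of them, the smallest adjusted p being 0.095 (without null 2).

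Cd22 encodes a sialic-acid-binding inhibitory co-receptor and was read by 3 tested probes. The brightest ran from 8.94 to 9.34 in wildtype and from 7.81 to 9.22 in null arrays, with medians of 9.03 and 9.05. Apart from null 5, at 2.40-fold under the wildtype mean, all null arrays were within 0.33 log2 of it. The second probe behaved likewise, with a range of 7.43 to 7.60 in wildtype, 6.18 on null 5 and values from 7.49 to 7.82 on the remaining null arrays. Its changes were -0.12 (SE 0.22, limma adjusted p = 0.81) with all arrays and 0.12 without null 5, and the brightest probe's were -0.23 (SE 0.20, limma adjusted p = 0.58) and -0.02. The dimmest probe was detected on 2 wildtype and 1 null arrays and was at -0.08 (SE 0.12, limma adjusted p = 0.76). The 95% interval of the brightest probe was -0.67 to 0.21.

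Ms4a1 encodes CD20, a tetraspanning membrane protein of late pre-B and B cells. Its probe ran from 6.52 to 7.17 in wildtype arrays with a median of 6.91. In null arrays it ran from 5.68 to 7.38 with a median of 6.93, so that null 4 (6.13) and null 5 (5.68) lay below every wildtype array and null 1 (7.32) and null 6 (7.38) above every one. Its fitted change was -0.18 on the log2 scale (SE 0.27, limma adjusted p = 0.76). On BeadChip 1, which held null 4, 5 and 6, it was -0.57, and on BeadChip 2, which held null 1, 2 and 3, it was 0.21. These signs cannot be told apart from differences between those null arrays.

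**Figure D2:**
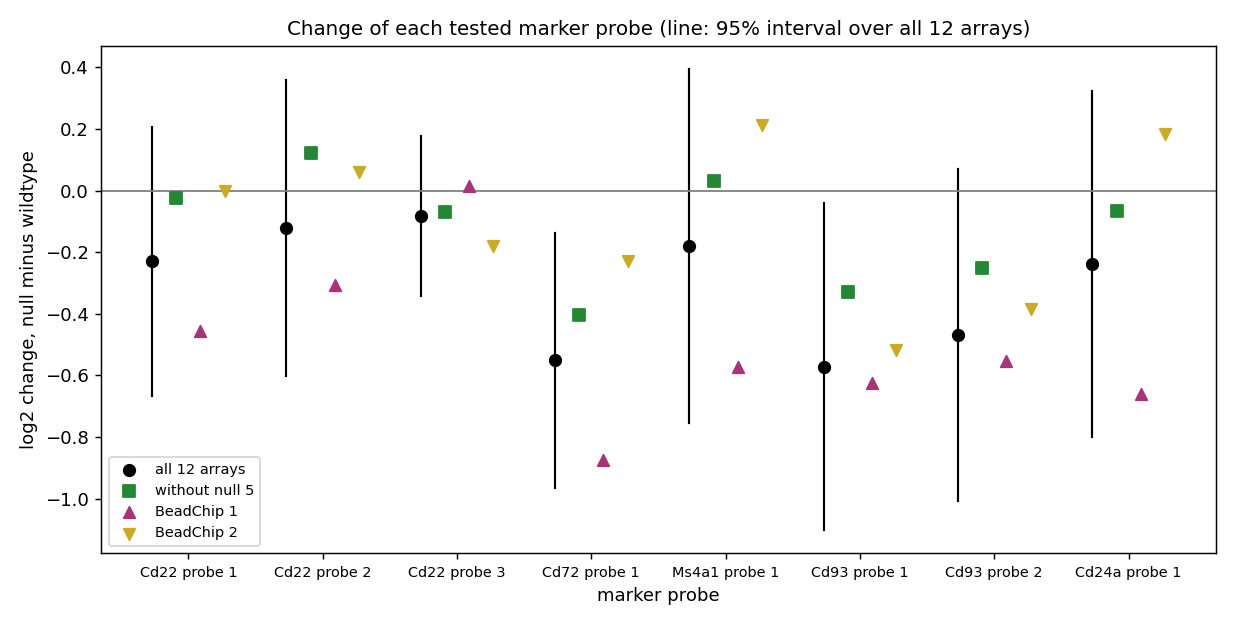
Log2 change of each tested marker probe, null minus wildtype (vertical axis), over all 12 arrays (black, with 95% interval), without null 5 (green), on BeadChip 1 (purple) and on BeadChip 2 (yellow). The changes of Cd72 and of both Cd93 probes lie below 0 in all 4 settings, those of the other probes move to about 0 without null 5 or differ in sign between settings.

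Null 4 and null 5 therefore differed in which markers were low. Null 5 differed from the wildtype mean by -1.26 for the brightest Cd22 probe, -1.29 for Cd72 and -1.78 for the brighter Cd93 probe on the log2 scale. For Ms4a1 and Cd24a it differed by -1.23 and -1.10. Null 4 was low for Cd72 (-1.12) and Ms4a1 (-0.77), near the wildtype mean for the brightest Cd22 probe (-0.13) and above it for Cd93 (0.31) and Cd24a (0.30). Null 3, the array with high myeloid genes, differed from the wildtype mean by -0.62 to -0.04 over the 8 tested probes. The errors of a probe's bead mean on 1 array had medians of 3.65% to 4.70% of its raw intensity over the 8 probes, a technical error that leaves out the spread between samples.

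Il2ra encodes the alpha chain of the interleukin-2 receptor, the CD25 antigen by which small pre-B cells are commonly recognised. Its only probe was detected on 0 of 12 arrays, with a smallest detection p of 0.058 (wildtype 1). Raw intensities ran from 80.8 to 124.2 and lay between 0.83 SDs below and 1.72 SDs above the mean of the 936 negative controls of the same array. Normalised levels were 4.47 to 4.89 in wildtype and 4.33 to 4.70 in null arrays, where the lowest detected probes of the arrays were at 4.87 to 5.01. Such a level gives only a bound, so no difference is given. Of the genes that act with it, Il2rg, the shared gamma chain (0.26, SE 0.17, limma adjusted p = 0.44), and Jak3, the kinase bound to that chain (0.25, SE 0.08, limma adjusted p = 0.14), were detected on all 12 arrays and did not pass.

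Bst1 encodes an ADP-ribosyl cyclase related to CD38. It was also detected on 0 of 12 arrays, the smallest detection p being 0.050 (wildtype 6). Its levels were 4.52 to 4.92 in wildtype and 4.38 to 4.56 in null arrays, each under the lowest detected signal of its own array, so no difference is given for it either.

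The mature markers Cr2 and Fcer2a were at background as well. The 2 Cr2 probes were detected on no array, with levels between 4.22 and 4.56, and raw intensities no more than 0.50 SDs above the mean of the negative controls. Of the 3 Fcer2a probes the brightest was detected on wildtype 5 and none on any other array, and their levels lay between 4.29 and 4.98 without a group standing higher.

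**Figure D3:**
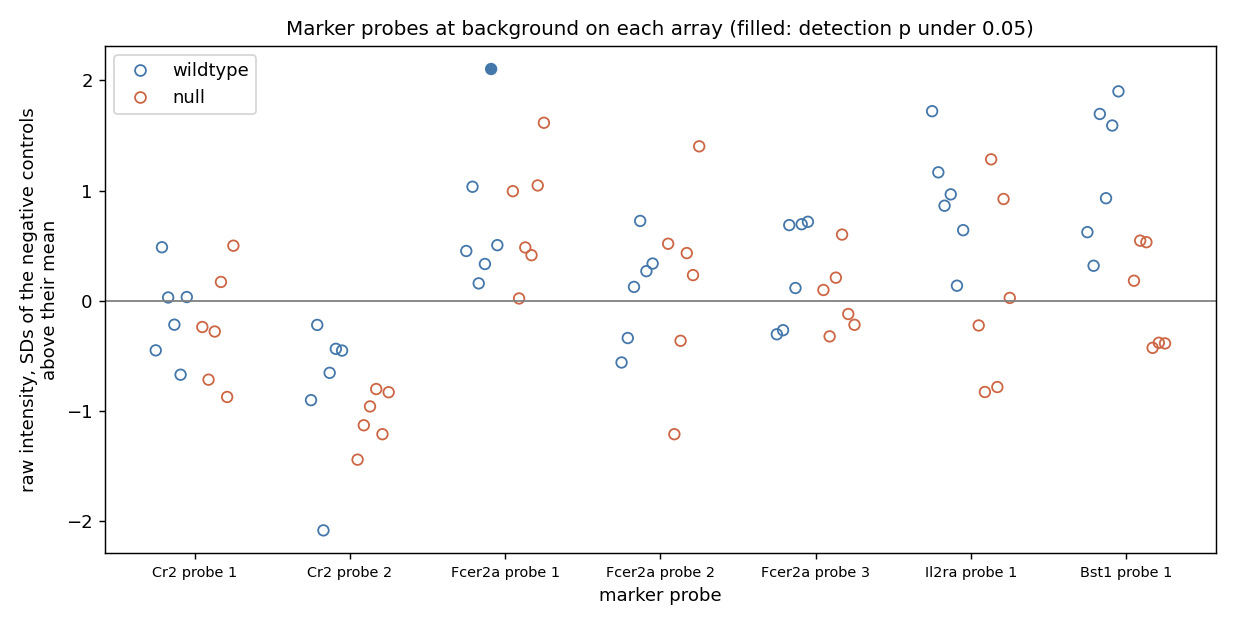
Raw intensity of the 7 untested marker probes on each array, as the number of SDs of the negative controls above their mean on that array (vertical axis), for wildtype (blue) and null (orange), with filled points where the detection p was under 0.05. All points lie within about 2 SDs of the mean of the negative controls, and only Fcer2a probe 1 on wildtype 5 is detected.

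Other surface genes of the same stages were followed as lists. Of 12 tested other surface genes of pro-B and pre-B cells none rose or fell (limma; 2 had an unadjusted p under 0.05), and their median change was -0.17. On null 4 their mean was 0.42 above the wildtype mean, the highest of the 12 arrays, and on null 5 it was 0.40 below it. Igll1 (11.44) and Vpreb1 (11.07) were high on null 4, against wildtype means of 9.25 and 8.40. Cxcr4 (9.38) and Cd79b (13.16) were under their wildtype means there (9.83 and 13.42). Il7r, the interleukin-7 receptor chain, had a change of -0.99 (SE 0.28, limma adjusted p = 0.10) by its brightest probe, which on null 4 (8.86) was above every wildtype array. Its dimmer tested probes were at -0.60 and -0.13 (limma adjusted p = 0.22 and 0.72). Cd2, an adhesion molecule gained by pre-B cells, had a change of 0.47 (SE 0.13, limma adjusted p = 0.092). Of 21 tested other surface genes of immature and mature B cells 1 rose and 0 fell (limma; 9 had an unadjusted p under 0.05, where 18.1% of all tested probes had one and 1.22% changed), with a median change of 0.015. The one that rose was Fcgr2b, the inhibitory Fc receptor that, like Cd22 and Cd72, carries an inhibitory motif. Its levels were 8.59 to 8.78 in wildtype and 9.11 to 9.58 in null arrays, so the groups did not overlap, and it rose by 0.64 (SE 0.09, limma adjusted p = 0.0035). Under median scaling instead of quantiles it was at 0.54 and did not pass (limma adjusted p = 0.32), and on each BeadChip alone, 3 arrays against 3, it was at 0.64 and did not pass (0.23 and 0.15). On null 5, where Cd72 and the 2 brighter Cd22 probes were lowest, Fcgr2b was at its highest (9.58). Its 3 dimmer tested probes did not pass, at 0.47 (limma adjusted p = 0.071), 0.22 and 0.14. A dimmer probe of Cd86, a co-stimulatory ligand, also rose, by 0.82 (SE 0.11, limma adjusted p = 0.0028; 0.36 with no background correction, and not past the threshold on either BeadChip alone, at 0.91 and 0.73), and was singled out after its values were seen, the brightest Cd86 probe being at 0.64 (SE 0.15, limma adjusted p = 0.062).

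Among 19 tested partners of co-receptor signalling, a list that also holds Fcgr2b, that gene was the only one to change (limma; 7 had an unadjusted p under 0.05), and the median was -0.15. Over all tested probes 18.1% had such an unadjusted p and 1.22% changed. Of 6 tested genes of interleukin-2 and interleukin-15 receptor signalling (Il2rg, Il15ra, Jak1, Jak3, Stat5a and the inhibitor Socs1) 0 changed (limma; 2 had an unadjusted p under 0.05), with a median of 0.10, and of 17 B-lineage transcription factors 0 changed (limma; 6 had an unadjusted p under 0.05), with a median of -0.27. The factors of smallest p were Bach2, a repressor of plasma cell fate (-0.71, SE 0.20, limma adjusted p = 0.091), and Spib, an ETS factor of B and plasmacytoid dendritic cells (-0.52, SE 0.14, limma adjusted p = 0.095). On null 5 the mean of the transcription factors was 0.53 below the wildtype mean, and on the other null arrays 0.08 to 0.15 below it.

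The genes most alike to each marker over the 12 arrays were sought as a description, the arrays sharing genotype, BeadChip and null 5. Cd72 was most like Blk, a Src-family kinase of B cells, with a Pearson r of 0.991 over 12 arrays and 0.985 without null 5, then Ell3 (0.982) and Rdm1 (0.977). Cd93 was most like Nedd9 (0.984, and 0.948 without null 5), Cpm (0.976) and Blvrb (0.973). Ms4a1 had Maz (0.937), Knstrn (0.934) and Ezh2 (0.930), and Cd24a had Ptpn11 (0.931), Trp53bp1 (0.890) and Ercc2 (0.887). For Cd22 the likeness to Xpo4 (0.969), Mylpf (0.950) and Chchd10 (0.945) fell to 0.778, 0.675 and 0.605 without null 5. Between the markers themselves the 2 Cd93 probes had r = 0.939, and 0.834 without null 5, while the 2 brighter Cd22 probes had 0.945 and 0.546. Ms4a1 and the brighter Cd93 probe had 0.36 over 12 arrays and -0.69 without null 5.

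Markers of other cell types were high on null 5, null 6 and null 3 to different degrees, and their part in these results was not tested. Null 4, low for Cd72 and Ms4a1, was 0.44 above the wildtype mean over the plasmacytoid dendritic list, 0.29 above it over the T and NK list and at -0.29 over the myeloid list. Of the plasmacytoid dendritic list 6 of 9 genes were tested, Ccr9 was detected on no array, and the summed intensity was 3636 to 6481 in wildtype and 4118 to 23840 in null arrays, highest on null 5. Of the T and NK list 10 of 16 were tested, Cd8a, Tcf7 and Bcl11b were detected on no array, and the sum was 1236 to 1582 in wildtype and 1418 to 3136 in null arrays, again highest on null 5. In wildtype arrays this sum was mainly Cd8b1, with a mean log2 level of 10.06 against 7.37 for Lck, the next brightest. The myeloid list, with 13 of 18 tested and Cd14 undetected, had sums of 7017 to 12420 in wildtype and 5938 to 76630 in null arrays, highest on null 3. Of the plasma cell list 4 of 8 were tested, Prdm1, Tnfrsf17, Jchain and Ell2 being undetected, with sums of 9179 to 11080 and 11380 to 15110. These sums were mainly Mzb1, with a wildtype mean log2 level of 13.12 against 10.11 for Xbp1, the next brightest. For the erythroid list, with 6 of 9 tested, the sums were 3488 to 5369 and 2805 to 7968. For the stromal and endothelial list, with 4 of 9 tested and Col1a1, Col1a2, Lepr, Pdgfrb and Vwf undetected, they were 56.5 to 94.4 and 76.7 to 355.4.

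In none of these 6 lists did a gene pass (limma; 0 of 13 myeloid, 8 of 10 T and NK, 3 of 6 plasmacytoid dendritic, 3 of 4 plasma cell, 0 of 6 erythroid and 1 of 4 stromal genes had an unadjusted p under 0.05). Such a p was found for 18.1% of all tested probes. The interferon response list, with 11 tested genes and 0 changed (limma; 7 at an unadjusted p under 0.05), was 2.83 above the wildtype mean on null 5. It was 2.20 above it on null 6, 1.39 on null 3 and 0.52 on null 4. On null 6, where interferon and plasmacytoid dendritic genes were also high, the brightest Cd22 probe and Ms4a1 differed from the wildtype mean by 0.16 and 0.47. Cd72 (-0.31) and the brighter Cd93 probe (-0.50) were below every wildtype array on null 6, and the second Cd93 probe (-0.31) was at the lowest wildtype value. The 14 tested cell cycle genes had 0 changed by their brightest probes (limma; 2 at an unadjusted p under 0.05), and a mean 0.59 below wildtype on null 5. A dimmer probe of Rrm2, a ribonucleotide reductase subunit, fell by 0.50 (limma adjusted p = 0.047) and was singled out after its values were seen.

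**Figure D4:**
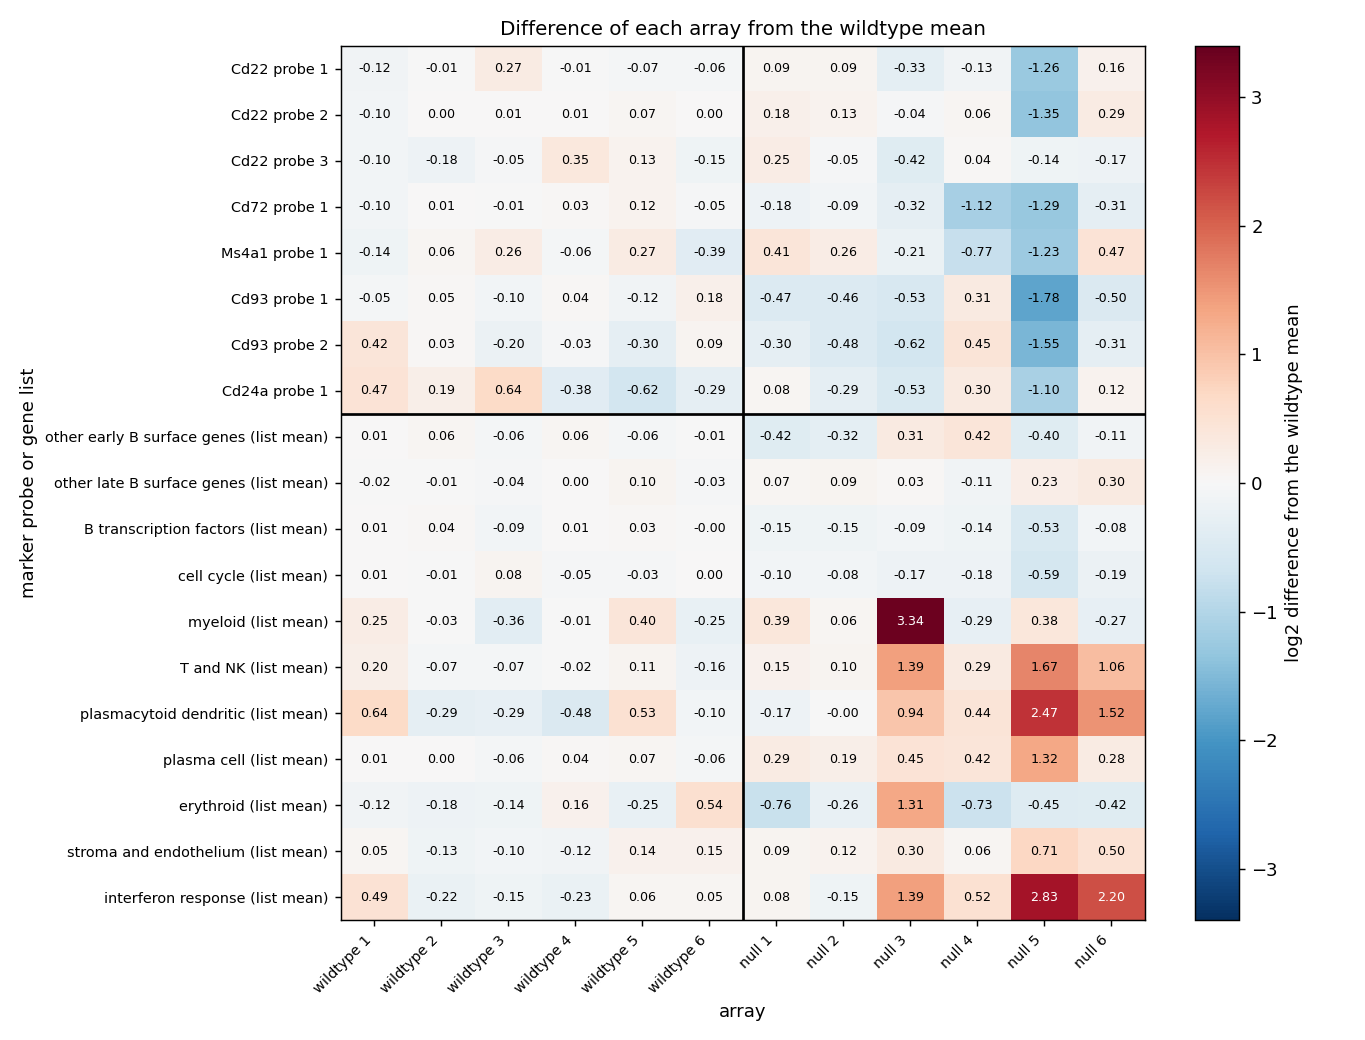
Log2 difference of each of the 12 arrays (columns) from the wildtype mean, for the 8 tested marker probes (upper block) and the means of 11 gene lists (lower block), with red for higher and blue for lower. On null 5 all marker probes but Cd22 probe 3 lie over 1 log2 below the wildtype mean while the plasmacytoid dendritic and interferon means lie over 2 log2 above it, and null 4 has low Cd72 and Ms4a1 without such rises.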

How the data were processed

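Levels of B-cell stage markers were measured on 12 arrays, 6 null and 6 wildtype, grouped by the labels. The deposited intensity values are mean bead intensities per probe with no normalization, exported from GenomeStudio 1.8.0 per the file headers. The deposited detection score is a fraction, and 1 less this score gives the detection p-value in another deposited table. The deposited table of log2 values was made by the authors with neqc, per the readme among the deposited files, with R 2.15.1, limma 3.12.1 and BeadStudio named in the submitters' processing notes. No source used here names a genome build. The number of arrays limits the precision.

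Intensities were background-corrected with 936 negative controls, quantile normalized and log2-transformed with an offset of 16 (neqc, limma 3.58.1, R 4.3.3), and differed from the authors' log2 values by at most 5.0e-09. Probes with a detection p under 0.05 on at least 3 arrays (17607 of 45281) entered the fit (lmFit, eBayes) of null against wildtype without covariates, with Benjamini-Hochberg adjustment over all of them. This fit was tested on simulated data that had the same spread in both groups. The fits of the other settings were not tested in this way. Each gene of a list was represented by its tested probe of highest mean, and a summed level is the sum over a list's tested genes of 2 to the power of the log2 level, less 16.

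Named were all members, Smchd1, the genes of each list at adjusted p under 0.05 or else up to 4 of smallest p, and the 3 genes most correlated with each tested member. Members and lists were chosen with earlier results of these data known. Of the symbols, 27400 were current, 8341 were matched through synonyms and 9540 stayed as in the file. Of same-numbered arrays, correlations of deviations from group means ran from -0.29 to 0.09, so replicate numbers were not taken as pairs. Alternatives were other background corrections, normalizations and filters, blocks for BeadChip or replicate number, single BeadChips, array weights, a trended robust prior, 1 probe per gene, and arrays left out.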

Additional observations from a re-analysis of the deposited data

Results flagged for a closer look

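Of the 16 sets of 6 arrays examined for the tested markers (8 probes in 2 groups), 3 held an array whose gap to its nearest neighbour was a large part of the group's range, above Dixon's 95% critical value for 6 samples. Chance flags about 1 in 20 such sets. The brightest Cd22 probe stood at 7.81 in null 5, with the next null array at 8.74, a gap of 0.661 of the range. The second Cd22 probe stood at 6.18 in the same array, with the next at 7.49 and a gap of 0.799 of the range. The brightest Cd22 probe was also highest in wildtype 3, at 9.34 against 9.06 in the next wildtype array, a gap of 0.703 of a narrow range, and the second probe (7.54) was not high there.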

How the results depend on the processing

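Of 204 values of the 8 marker probes under 26 other settings, 187 kept their direction and their side of the threshold, 1 passed it and 16 changed sign, none of these past the threshold. The number of changed marker probes was 0 in every setting except with null 4 and null 5 left out, where it was 1 (Cd93). On BeadChip 1 alone Cd22 probe 3 was at 0.016. On BeadChip 2 alone Cd22 probe 2 was at 0.061, Ms4a1 at 0.214 and Cd24a at 0.184. With array weights Cd22 probe 2 was at 0.070 and Ms4a1 at 0.100. Leaving out 1 array gave a range of -0.205 to 0.123 for Cd22 probe 2 and of -0.309 to 0.031 for Ms4a1, both at their highest without null 5. With null 3 and null 5 left out the 3 Cd22 probes were at 0.052, 0.163 and 0.018, Ms4a1 at 0.092 and Cd24a at 0.050. With null 4 and null 5 left out Cd22 probes 1 and 2 were at 0.003 and 0.139 and Ms4a1 at 0.232.

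Over all tested probes the count of changed ones was 215 (94 higher, 121 lower). It was 92 with median scaling (59 higher, 33 lower), 101 with no filter on dim probes, 12 on BeadChip 1 (7 higher, 5 lower), 43 on BeadChip 2 (33 higher, 10 lower), 104 with the replicate number as a block and 380 with array weights. Leaving out 1 array gave 68 to 319 changed probes and 0 changed marker probes, with 106, 88, 68, 70 and 68 without wildtype 1, 2, 3, 4 and 6 and 132 without null 3. Each single BeadChip held fewer arrays, 3 against 3, and the cause of these shifts in count was not tested. The replicate block left the number of changed marker probes at 0. The median change over all tested probes was -0.04, -0.08 with median scaling and -0.02 with no background correction. Signal over background limits Il2ra, Bst1, Cr2 and Fcer2a, for which only a bound exists.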
